A study of Mus musculus with 6 samples.

Results

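Integrins, their ICAM ligands, CD44 and the selectin ligand PSGL-1 were followed in splenic B cells of Bcl2-transgenic mice with and without the histone acetyltransferase Crebbp. The 10 genes were taken from the array annotation by symbol: Itgal, Itgb2, Itga4, Itgb1, Itgb7, Itgax, Icam1, Icam2, Cd44 and Selplg. They are 10 of 18193 genes with a probe set of a single symbol, and all 10 were measured, by 23 of the 34945 such probe sets. Arrays of 3 mice with Crebbp deleted (CBPΔ/Δ x EµBcl2) were compared with arrays of 3 mice with floxed Crebbp alleles (CBPF/F x EµBcl2). Both groups carry the EµBcl2 transgene, whose immunoglobulin enhancer is active in B-lineage cells, so there is no group without forced Bcl2. The Cre driver, the age and the strain background are not stated in the sources used here. Spleen cells of both groups were frozen, thawed and depleted of CD43-bearing cells with beads, which leaves resting B cells untouched. Levels are log2 intensities of 1 probe set, differences are Crebbp-deleted minus Crebbp-floxed, and SE and p are from limma.

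Integrins are pairs of an α and a β chain in the plasma membrane that bind counter-receptors or matrix once intracellular talin and kindlin switch them to an open form. On lymphocytes αLβ2 (LFA-1, from Itgal and Itgb2) binds ICAM-1 and ICAM-2, while α4β1 (VLA-4) and α4β7 (LPAM-1) bind VCAM-1 and MAdCAM-1. LFA-1 and α4β1 together hold marginal zone B cells in the mouse spleen, CD44 binds hyaluronan, and PSGL-1, the product of Selplg, is a ligand of the selectins through which leukocytes roll on vessel walls.

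All 4 Crebbp probe sets were dimmer after deletion, with remaining signals from 51.0% to 70.6% of the floxed level; where they lie relative to the deleted part was not analysed here. The 5 Bcl2 probe sets ran from −0.89 to 0.43, and all but the set at 0.43 (limma adjusted p = 0.324 over all probe sets) were lower. The set at −0.85 passed (adjusted p = 0.024). The B cell markers Ms4a1 (12.43 to 12.50 in deleted samples and 12.51 to 12.80 in floxed samples) and Cd79b (12.18 to 12.25 and 12.20 to 12.45) were bright on all 6 arrays. The B cell markers as a list were lower, in 8 of 9 measured, with mean levels from 10.31 to 10.50 in deleted samples and from 10.76 to 10.97 in floxed samples and a median difference of −0.28. Of these Cd79a, the receptor's signalling chain, passed (−1.11, limma adjusted p = 0.0093), and the IgE receptor Fcer2a had −1.03 (adjusted p = 0.057). Markers of plasma cells, 10 of 10 higher, had mean levels from 8.56 to 9.60 in deleted samples and from 7.70 to 7.73 in floxed samples. Among them Jchain, which joins polymeric IgM and IgA, rose by 1.65 (limma adjusted p = 0.011). Macrophage and monocyte markers, 12 of 12 higher, had mean levels from 6.40 to 7.31 in deleted samples and from 5.12 to 6.48 in floxed samples. Their differences ran from 0.008 to 2.11, and 0 of the 12 passed (smallest limma adjusted p = 0.068). Over all genes 9705 of 18193 differences were positive. Xist and Y-linked genes marked deleted samples 1 and 3 and floxed sample 1 as male and the others as female, so the sexes are unequal between the groups. In bulk RNA, fewer cells of a type and less RNA per cell cannot be told apart.

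Across the 10 adhesion genes limma called 0 (Benjamini-Hochberg adjusted p from 0.221 to 0.965), where 0.781% of all genes were called. At an unadjusted p under 0.05 there were 2 of the 10, Itgb1 and Itgb7, both higher in deleted samples, against 14.8% of all genes. The same 2 were the genes whose groups did not overlap, a separation that 21.2% of all genes showed, 11.2% with the deleted samples above. Of the 10 differences 6 were positive and 4 negative, with a median of 0.16 against 0.01 over all genes. Their median size regardless of sign was 0.30, against 0.12 over all genes and 0.15 over genes above the median of all probe set means, 4.29. The 10 genes were chosen with earlier results of these data known, so this contrast is a description and not a test. The median SE was also larger, at 0.16 for a member's difference against 0.12 over all genes. The number of arrays limits what could be seen: the smallest two-sided p of an exact permutation test over 3 and 3 samples is 0.1.

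**Figure D1:**
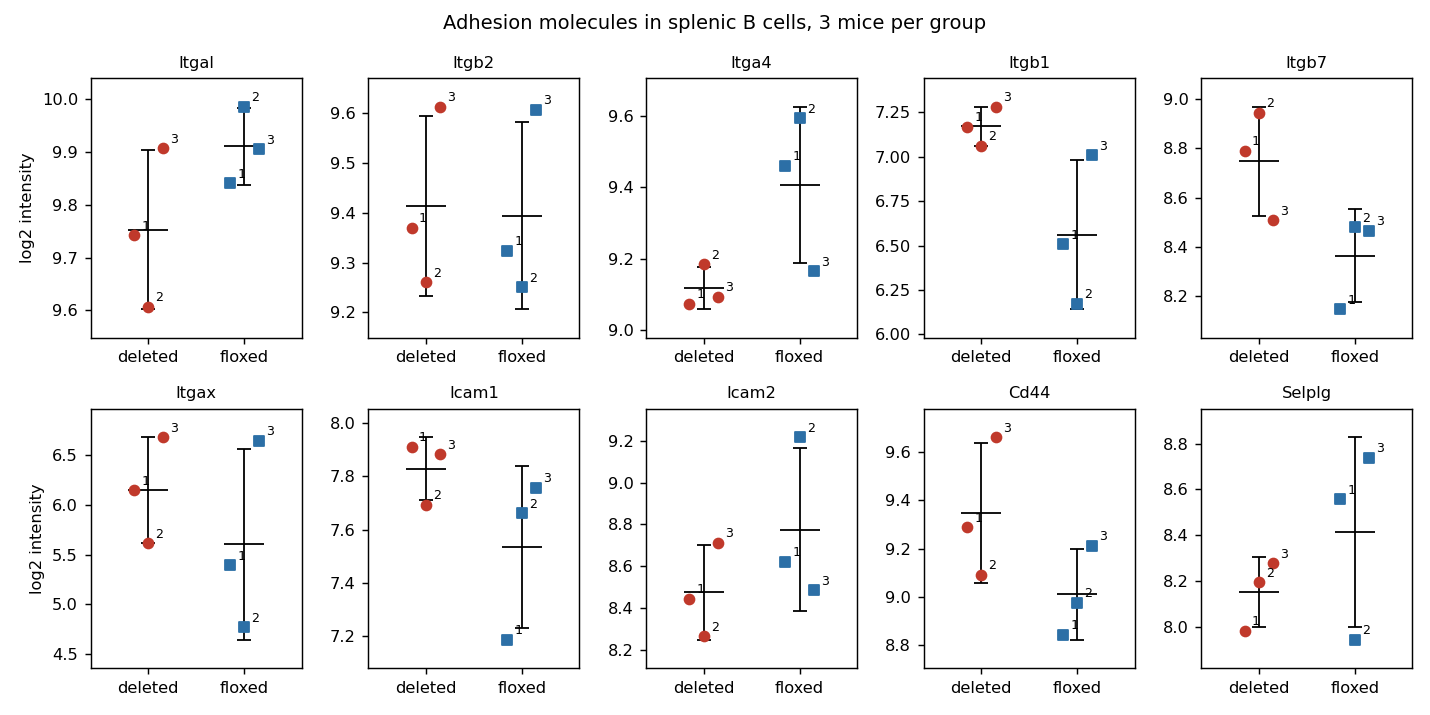
Log2 intensity (vertical axis, its own range in each panel) of the representative probe set of each gene in 3 Crebbp-deleted (red circles, left) and 3 Crebbp-floxed samples (blue squares, right), numbered by replicate, with bars for the mean and SD. Only in Itgb1 and Itgb7 do the deleted samples all lie above the floxed samples, and in both panels the nearest samples of the 2 groups are close.

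The α4 chain and its β partners had the 3 smallest unadjusted p-values of the 10 genes (0.018 for Itgb1, 0.033 for Itgb7 and 0.051 for Itga4). Itgb1, the β1 chain shared by VLA-4 and many matrix-binding integrins, had log2 intensities of 7.17, 7.06 and 7.28 in deleted samples 1 to 3, against 6.51, 6.17 and 7.01 in floxed samples 1 to 3. All deleted samples lay above all floxed ones, but floxed sample 3 came close to the lowest of them. The means were 7.17 ± 0.11 and 6.56 ± 0.42 (SD, n = 3 each), a difference of 0.61 ± 0.20 (SE; 95% interval 0.14 to 1.08) or 1.53-fold, which did not pass (limma adjusted p = 0.221). Without floxed sample 3 the difference was 0.83 (adjusted p = 0.051), and it was 0.41 when floxed sample 2 was left out (adjusted p = 0.314). Of its 6 probe sets the 3 brighter ones were all higher in deleted samples, by 0.61, 0.60 and 0.24, the last from a set whose suffix (x) marks probes that can match other sequences. The other 3 were dim in every sample, from 1.87 to 2.31, with differences from −0.06 to 0.01.

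Itgb7, the β7 chain that pairs with α4 in the gut-homing receptor LPAM-1, had levels of 8.79, 8.94 and 8.51 in deleted samples, against 8.15, 8.48 and 8.46 in floxed samples. The groups did not overlap, though deleted sample 3 exceeded floxed sample 2 by little. The difference was 0.38 ± 0.15 (95% interval 0.04 to 0.73; limma adjusted p = 0.281), or 1.30-fold. With sex as a term it was 0.49 (adjusted p = 0.154), within males 0.50 and within females 0.47. The only floxed male is floxed sample 1, the lowest of all, and the only deleted female is deleted sample 2, the highest. The difference was 0.27 without floxed sample 1 (adjusted p = 0.568) and 0.29 without deleted sample 2 (adjusted p = 0.502). Itgb7 has a single probe set, so no second one bears on it.

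Itga4, the α4 chain common to both receptors, stood in the opposite direction. Its brightest probe set had levels of 9.07, 9.18 and 9.09 in deleted samples, against 9.46, 9.59 and 9.16 in floxed samples. The 3 deleted samples were close together, and floxed sample 3 lay among them, so the groups overlapped. The difference was −0.29 ± 0.12 (95% interval −0.58 to 0.002; limma adjusted p = 0.340), which is 81.8% of the floxed level. All 5 probe sets of Itga4 were lower in deleted samples, by 0.20 to 0.42 in size. The largest of these, −0.42, came from a probe set dimmer than the median of the array. Without floxed sample 3 the difference of the brightest probe set was −0.41 (adjusted p = 0.155). In both Itga4 and Itgb1 floxed sample 3 was the floxed sample nearest to the deleted ones.

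**Figure D2:**
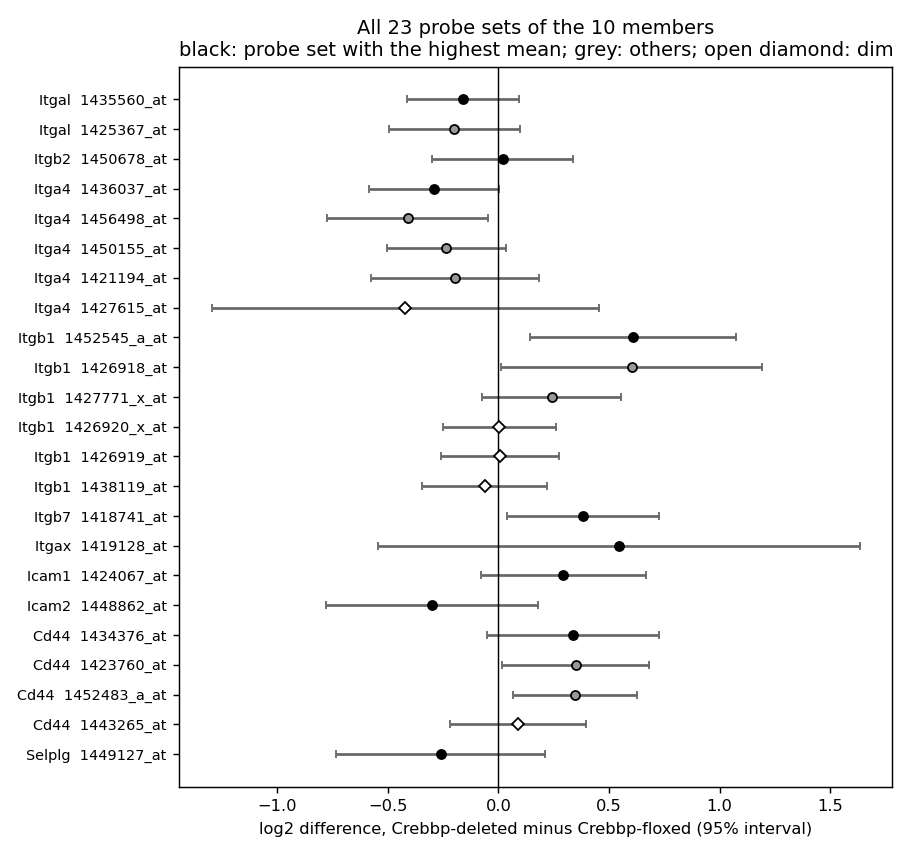
Log2 difference (Crebbp-deleted minus Crebbp-floxed, horizontal axis) with its 95% interval for each of the 23 probe sets of the 10 genes, grouped by gene from top to bottom. Black points mark the probe set that represents its gene, grey points other probe sets, and open diamonds the 5 dim probe sets, those not above the array's median. Within each of the 4 genes with more than 1 probe set, those above that median point one way.

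Of the 23 probe sets 18 lay above that median. Within each of the 4 genes with more than 1 probe set (Itgal, Itga4, Itgb1 and Cd44) those above it pointed one way, as the plot of probe set differences shows. The other 6 genes have 1 probe set each and could not disagree. In a fit over all single-symbol probe sets, of which 0.687% passed, 0 of the 23 passed (smallest limma adjusted p = 0.220). An unadjusted p under 0.05 was found at 6, with more than 1 each from Itgb1 and Cd44, so these are not 6 separate genes. The largest of these 6 limma p-values, 0.046, ranked 4958 among all 34945 probe sets. Over all genes, in the other fit of 1 probe set per gene, 14.8% were under 0.05. The groups did not overlap at 3 of the 23, against 21.0% of all such probe sets.

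For the pair of chains of VLA-4, which stood in opposite directions, the sequence before the start of each gene is shown, because Crebbp was named for binding CREB and CREB recognises the cAMP response element (CRE). The sequences are the 250 bases before the annotated start in RefSeq (GRCm38.p6), on the plus strand in both cases, at chr2:79255176-79255425 for Itga4 and chr8:128685404-128685653 for Itgb1. Capitals mark the CRE half-site TGACG and the GC box GGGCGG, searched on both strands.
Itga4: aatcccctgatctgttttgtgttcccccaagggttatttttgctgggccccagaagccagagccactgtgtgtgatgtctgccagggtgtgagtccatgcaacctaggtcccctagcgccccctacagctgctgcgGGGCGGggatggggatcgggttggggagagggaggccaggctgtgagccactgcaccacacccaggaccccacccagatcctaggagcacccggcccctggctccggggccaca
Itgb1: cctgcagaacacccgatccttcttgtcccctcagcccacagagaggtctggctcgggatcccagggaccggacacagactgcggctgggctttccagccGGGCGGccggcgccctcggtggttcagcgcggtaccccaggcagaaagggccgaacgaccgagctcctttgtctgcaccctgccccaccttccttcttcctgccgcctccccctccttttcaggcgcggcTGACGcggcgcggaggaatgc

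RefSeq windows were found for 6 of the 10 genes (Itga4, Cd44, Itgax, Itgb1, Icam1 and Itgb7). The half-site was present in 1 of these 6, that of Itgb1, where it lies 21 to 17 bases before the start, and in 17.8% of all 32851 windows of this length. The full element TGACGTCA, which contains the half-site, was in 0 of the 6 and in 1.55% of all windows. The GC box was in 3 of the 6 (Itga4, Itgb1 and Icam1) and in 32.7% of all windows. These are matches of letters and not measured binding sites.

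The chains of LFA-1 differed little. Itgb2, the β2 chain common to the leukocyte integrins, had levels of 9.37, 9.26 and 9.61 in deleted samples, against 9.32, 9.25 and 9.61 in floxed samples. The groups covered almost the same range, and the difference was 0.02 ± 0.14 (95% interval −0.30 to 0.34; limma adjusted p = 0.965). Itgal, the αL chain, had levels of 9.74, 9.61 and 9.91 in deleted samples, against 9.84, 9.99 and 9.91 in floxed samples. Deleted samples 1 and 2 lay below all floxed ones and deleted sample 3 among them, with a difference of −0.16 ± 0.11 (95% interval −0.41 to 0.09; limma adjusted p = 0.546). It was −0.09 without deleted sample 2, −0.016 within males and −0.34 within females. Its second probe set had a difference of −0.20. A change in either chain that lies within its interval remains compatible with these data. The intervals are not limits of detection. They are not adjusted for the number of genes, so larger changes are not excluded either.

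The ICAM ligands of LFA-1 pointed apart. Icam1, an inducible adhesion molecule that NF-kB and cytokines raise, had levels of 7.91, 7.69 and 7.88 in deleted samples, against 7.19, 7.66 and 7.76 in floxed samples. Floxed sample 1 was the low one, floxed sample 2 lay just under the deleted range and floxed sample 3 within it. The difference was 0.29 ± 0.16 (95% interval −0.08 to 0.67; limma adjusted p = 0.444), and it was 0.12 without floxed sample 1. Within males it was 0.71, where floxed sample 1 is the only floxed one, and within females −0.016.

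Icam2, which resting lymphocytes and endothelium carry constitutively, had levels of 8.45, 8.27 and 8.71 in deleted samples, against 8.62, 9.22 and 8.49 in floxed samples. Floxed sample 2 stood above the other samples, which overlapped. The difference of −0.30 ± 0.21 (95% interval −0.78 to 0.18; limma adjusted p = 0.555) was −0.08 without that sample. Endothelial and stromal markers were dim in both groups, with mean levels from 3.11 to 3.32 in deleted samples and from 3.16 to 3.18 in floxed samples.

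Cd44, the hyaluronan receptor, which increases on activated and memory lymphocytes and is abundant on plasma cells, had levels of 9.29, 9.09 and 9.66 in deleted samples, against 8.84, 8.98 and 9.21 in floxed samples. Deleted sample 3 was the highest of the 6 and floxed sample 3 lay above deleted sample 2. The difference at the brightest probe set was 0.34 ± 0.17 (95% interval −0.05 to 0.72; limma adjusted p = 0.398). The 3 bright probe sets of Cd44 were close to each other, with differences of 0.34, 0.35 and 0.35. At the dimmest of these 3 the groups did not overlap, at 7.44, 7.37 and 7.60 in deleted samples against 7.07, 6.99 and 7.32 in floxed samples, and it did not pass either (limma adjusted p = 0.242 over all probe sets). The plasma cell markers were also highest in deleted sample 3, at a mean of 9.60, while deleted samples 1 and 2 had 8.56 and 8.73. Floxed samples differed little in these markers, from 7.70 to 7.73. Macrophage, neutrophil and erythroid markers were highest in deleted sample 3 too, at means of 7.31, 5.77 and 4.78. Leaving out deleted sample 3 gave a Cd44 difference of 0.18. Plasma cells can carry CD43, the antigen of the beads. The part of any of these cell types in the Cd44 level was not tested. Within males the difference was 0.63 and within females −0.0014.

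Itgax, the αX chain (CD11c) of dendritic cells, some macrophages and a subset of B cells, varied more between mice of one group than any other of the 10. It had levels of 6.15, 5.62 and 6.69 in deleted samples, against 5.39, 4.77 and 6.65 in floxed samples. Floxed sample 3 was almost as high as deleted sample 3, and floxed sample 2 was the lowest of all. The means were 6.15 ± 0.54 and 5.60 ± 0.96 (SD, n = 3 each), and the difference of 0.55 ± 0.47 had a 95% interval from −0.56 to 1.65 (limma adjusted p = 0.652). It was 1.07 without floxed sample 3 (adjusted p = 0.214) and 0.13 without floxed sample 2. The 7 measured dendritic cell markers had mean levels of 5.18, 5.03 and 5.64 in deleted samples, against 5.09, 4.57 and 5.81 in floxed samples. As with Itgax, their mean was lowest in floxed sample 2 and highest in deleted sample 3 and floxed sample 3. Macrophage markers were also lowest in floxed sample 2 (5.12) and highest in deleted sample 3 (7.31), with floxed sample 3 at 5.93. Other lists shared parts of this pattern. Neutrophil markers (5.77 and 5.51) and NK cell markers (4.30 and 4.50) were also highest in deleted sample 3 and floxed sample 3. T cell markers were also lowest in floxed sample 2 (4.46). What any of these cells contribute to Itgax was not tested.

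**Figure D3:**
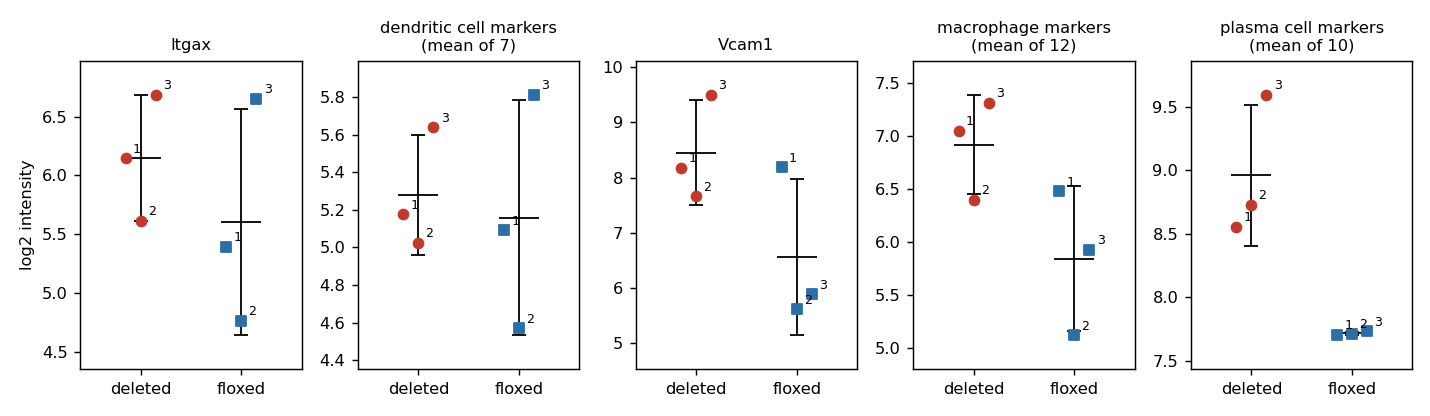
Log2 intensity (vertical axis, its own range in each panel) of Itgax, Vcam1 and the mean of 3 marker lists in Crebbp-deleted (red circles, left) and Crebbp-floxed samples (blue squares, right), numbered by replicate, with bars for the mean and SD. Itgax and the dendritic cell markers are lowest in floxed sample 2 and high in both samples numbered 3, and Vcam1 and the macrophage markers are highest among floxed samples in sample 1.

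Selplg, which encodes PSGL-1, had levels of 7.98, 8.20 and 8.28 in deleted samples, against 8.56, 7.94 and 8.74 in floxed samples. Floxed samples 1 and 3 were above all deleted samples and floxed sample 2 was below them. The difference was −0.26 ± 0.20 (95% interval −0.74 to 0.22; limma adjusted p = 0.609), and it was −0.50 without floxed sample 2 (adjusted p = 0.155), −0.10 without floxed sample 3 (adjusted p = 0.878) and −0.18 without deleted sample 1.

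A wider set of 86 adhesion genes in 4 lists was read from the same fit, and 81 of them were measured. In limma 0 of the 81 passed at an adjusted p under 0.05, and 15 were under 0.05 before adjustment, to be set beside the 14.8% of all genes. Among 18 other integrin subunits 0 passed, 14 differences were positive and 4 negative, and the median was 0.06. The laminin receptor chain Itga6 had levels of 4.81, 5.65 and 3.81 in deleted samples, against 5.88, 6.17 and 6.36 in floxed samples. Every deleted sample lay below every floxed sample, as in 10% of all genes, with a difference of −1.38 ± 0.41 (limma adjusted p = 0.182). It was −0.91 without deleted sample 3, −1.57 within males and −0.62 within females. Deleted sample 3 was dimmer than the array median, and with 32 added to the intensities the difference of Itga6 was −0.75. The αV chain Itgav was also separated, with a difference of −0.36 ± 0.11 (limma adjusted p = 0.193). The platelet and osteoclast integrin chain Itgb3 had −0.97 (adjusted p = 0.426), and Itgae, the αE partner of β7, had 0.64 (adjusted p = 0.355). Itgam, the αM chain of myeloid cells, was dim at 3.25 to 3.81 in deleted samples and 3.04 to 4.27 in floxed samples, with a difference of 0.06 (adjusted p = 0.960).

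Among 21 ligands, selectins and other adhesion receptors 0 passed, and the median was 0.04. Vcam1, the counter-receptor of VLA-4, had levels of 8.18, 7.66 and 9.51 in deleted samples, against 8.19, 5.61 and 5.88 in floxed samples. Floxed sample 1 reached the deleted range, while floxed samples 2 and 3 were far below it. The difference was 1.89 ± 0.73 (95% interval 0.19 to 3.59; limma adjusted p = 0.286), and it ran from 1.36 without deleted sample 3 (adjusted p = 0.518) to 2.70 without floxed sample 1 (adjusted p = 0.167). It was 1.28 with sex as a term, 0.65 within males and 1.91 within females. Floxed sample 1 also had the highest macrophage marker mean of its group, 6.48 against 5.12 and 5.93, and the complement gene C1qb of macrophages stood at 8.61, 8.01 and 8.95 in deleted samples, against 7.31, 5.87 and 6.12 in floxed samples. Their part in the Vcam1 level was not tested. The junction molecule F11r (JAM-A) had a difference of 0.84 (limma adjusted p = 0.060), Pecam1, a homophilic receptor of endothelium and leukocytes, −0.37 (adjusted p = 0.168), and the endothelial and platelet selectin Selp −0.50 (adjusted p = 0.053). Selp was dimmer than the array median in all samples. With 32 added to the intensities the difference was 0.41 for F11r and −0.14 for Selp. With the mean of a gene's probe sets it was 0.50 for F11r (limma adjusted p = 0.102) and −0.24 for Selp (adjusted p = 0.212). Spn, which encodes the CD43 antigen of the depletion beads, had levels of 4.99, 4.76 and 5.25 in deleted samples, against 5.60, 5.10 and 5.33 in floxed samples, a difference of −0.34 (adjusted p = 0.397).

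**Figure D4:**
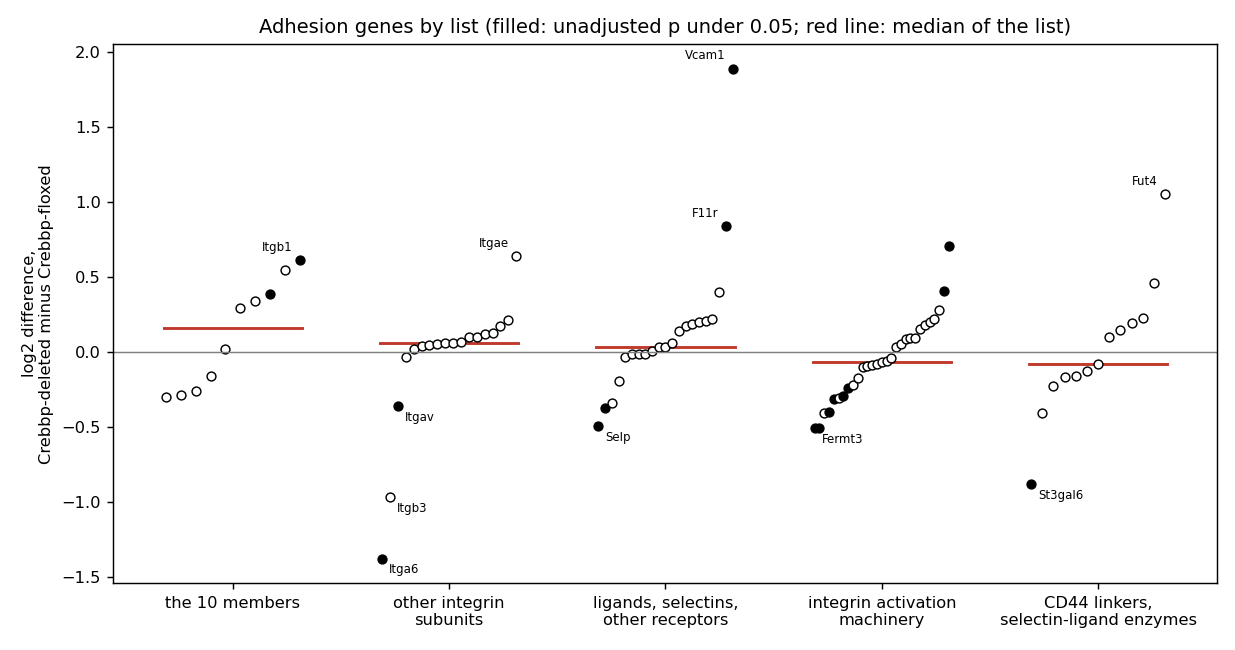
Log2 difference (Crebbp-deleted minus Crebbp-floxed, vertical axis) of each measured gene, sorted within the 10 members and 4 wider adhesion lists, with filled points for an unadjusted p under 0.05 and a red line at the median of the list. The medians lie between −0.08 and 0.16, and 0 of these genes were called over all genes.

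Among 29 genes of the integrin activation machinery 0 passed, and 17 of the differences were negative, with a median of −0.07. At an unadjusted p under 0.05 there were 6 lower and 2 higher, where all genes had 6.84% lower and 7.96% higher. Fermt3, the kindlin that opens β1, β2 and β3 integrins in blood cells, had levels of 10.50, 10.31 and 10.29 in deleted samples, against 10.77, 11.02 and 10.84 in floxed samples. The groups did not overlap, and the difference was −0.51 ± 0.11 (95% interval −0.77 to −0.25; limma adjusted p = 0.091). Ptk2b, the adhesion kinase PYK2, had a difference of −0.51 ± 0.10 (limma adjusted p = 0.068). The parvin Parvg, which joins integrin-linked kinase to actin, had −0.40 (adjusted p = 0.174) and the small GTPase Rap1b, which recruits talin, −0.30 (adjusted p = 0.188). In each of these genes every deleted sample was under every floxed sample, as in 10% of all genes, and they were named for their small p.

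Among 13 linkers of CD44 to the cytoskeleton and enzymes that build selectin ligands 0 passed, with a median of −0.08. The sialyltransferase St3gal6 had levels of 7.32, 7.67 and 7.24 in deleted samples, against 8.89, 7.86 and 8.14 in floxed samples. The groups did not overlap, and the difference was −0.88 ± 0.26 (limma adjusted p = 0.176). It was −0.59 without floxed sample 1, which is the only floxed male, −1.60 within males and −0.33 within females. The fucosyltransferase Fut4 had a difference of 1.05 ± 0.48 (limma adjusted p = 0.366) with overlapping groups. Fut7, the fucosyltransferase of leukocyte selectin ligands, had 0.22 (adjusted p = 0.405), and the sulphotransferase Chst2 had −0.16 (adjusted p = 0.428) with 1 of its 3 probe sets the other way. Both of these were dimmer than the array median.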

How the data were processed

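Gene expression of 6 samples of splenic B cells was measured on Affymetrix mouse arrays. The authors deposited intensities for each probe set, on a linear scale from 2.96 to 17022. RMA (background correction, quantile normalization and probe summary) is named in the submitters' processing notes without a version. Arrays have no read depth, and their number limits the precision. Intensities were log2-transformed with no further normalization. Median log2 values ran from 4.27 to 4.30. Of 45101 probe sets 34945 had 1 symbol in the platform annotation, after 64 control probe sets were left out, and 0 symbols changed through Entrez IDs in the RefSeq table of GRCm38.p6. A gene was represented by its probe set with the highest mean. The comparison used lmFit and eBayes of limma 3.58.1 (R 4.3.3), two-sided and without covariates, with Benjamini-Hochberg adjustment over all 18193 genes or all 34945 probe sets and a threshold of 0.05. The procedure was tested on simulated data.

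Per the series' design text each group has 3 mice. Replicate numbers are shared between the groups, but deviations of same-numbered samples correlated by 0.055, 0.093 and −0.017, so the numbers were not taken to pair mice. Genes were named by rule: the members, Crebbp, Bcl2, Spn, Itgam, Itgae, Itgav, Vcam1, the 4 genes of smallest p in each adhesion list and up to 3 in the plasma cell and macrophage lists. The B cell markers Ms4a1 and Cd79b (bright) and Cd79a and Fcer2a (smallest p) were picked after their values were seen. The members and lists were chosen with earlier results of these data known. Alternatives covered normalization, dim genes, a pseudocount of 32, the choice of probe set, limma settings, a replicate block, sex, and leaving out each sample. Plots were made in Python 3.11.15 with matplotlib 3.10.9.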

Additional observations from a re-analysis of the deposited data

How the results depend on the processing

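With 3 arrays per group the precision is set by the number of arrays. In all 18 alternatives run, 0 of the 10 adhesion genes passed limma's test, and 0 of their 23 probe sets in the 15 that keep all probe sets. Leaving out each sample in turn gave 0 and 0. The smallest adjusted p was 0.051, for Itgb1 without floxed sample 3. At an unadjusted p under 0.05 the count of the 10 genes ran from 0 without floxed sample 1 to 6 without floxed sample 3. Over all 18193 genes those 2 fits had 1993 and 2581 under 0.05. Itgal, Itga4, Itgb1, Itgb7, Icam2 and Selplg kept their sign in all 18. Of 180 differences 8 changed sign, and the cause was not tested. For Itgb2 these were −0.0006 with sex as a term, −0.17 within females, and −0.079, −0.015 and −0.051 without deleted sample 3, floxed sample 1 and floxed sample 2, in a range of −0.079 to 0.13 over the samples left out. Within females Itgax had −0.092, Icam1 −0.016 and Cd44 −0.0014, in a fit that sets 1 deleted female against 2 floxed females and assumes that the lone sample varies like the others. With the replicate number as a block 0 of the 10 genes and 126 of all genes passed, against 142 without it, and no call among the 10 changed. Unadjusted p-values did move: 5 of the 10 were under 0.05 with the block, against 2 without it. Over all genes these counts were 2544 and 2693. The unadjusted limma p of Itgax was 0.023 with the block and 0.283 without it. Over all genes 37 passed with sex as a term, 0 within males and 0 within females (1798 and 1237 at an unadjusted p under 0.05), and from 0 without floxed sample 1 to 227 without floxed sample 3 when samples were left out. Of the wider adhesion genes 0 passed with all samples, 1 with quantile normalization again (Selp), 1 with the mean of a gene's probe sets (Ptk2b), 1 with an intensity trend (Ptk2b), 2 with robust eBayes (F11r and Selp), and 0 to 1 when samples were left out (F11r without floxed sample 3).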
